A study of Mus musculus with 12 samples.

Results

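Trim43a, Trim43b, Trim43c, Zscan4c, Zscan4d, Zscan4f and Tcstv3 are 7 of the 54232 gene IDs counted in mouse eye organoids. All are known from earlier work as transcripts of 2-cell-like (2C-like) cells, a name that was not tested here. They were chosen because Trim43a was among the genes with the largest difference between organoids given GNE-140 and control organoids, so their values in that comparison are a description and carry no test. All 7 genes had reads in some library, and 6 of them, all but Trim43c, passed the filter on low counts that kept 17721 genes. Counts were low throughout: over the 12 libraries Zscan4d held 1582 reads, Zscan4c 809, Zscan4f 608, Trim43a 593, Trim43b 144, Tcstv3 97 and Trim43c 40.

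Bulk RNA was sequenced from organoids at day 7 that were grown from mouse embryonic stem cells (ESCs) carrying a GFP knock-in at 1 Rax allele, a genotype shared by all groups. LDHi+lactate organoids received 20 µM GNE-140, an inhibitor of lactate dehydrogenase, for 3 days together with 25 mM sodium L-lactate, which the sample labels describe as a pretreatment of 12 h. LDHi organoids received 20 µM GNE-140 for 3 days without lactate, and control organoids received neither agent. Each group held 4 libraries numbered 1 to 4, from independent experiments, and all come from this 1 ESC line. The labels call the cells of replicates 1 and 2 eye organoid (first set) and those of replicates 3 and 4 retina progenitors (second set).

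Total counts were 29255114 to 42489921 in the LDHi+lactate libraries, 22174002 to 46881759 in those of LDHi and 25209097 to 48271386 in those of control. The second set was the shallower one, with 22174002 to 29919036 counts a library against 37284585 to 48271386 in the first. The 8 eye field and optic vesicle genes that check the tissue summed to 759 to 1040 CPM (counts scaled to a library of 1000000 reads) in LDHi+lactate, 590 to 652 CPM in LDHi and 784 to 1490 CPM in control libraries. At these depths a gene with 0 reads in a library could have been present at up to 0.0614 to 0.138 CPM, the level of 3 reads. This limit covers counting error only.

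A small and changing share of ESCs in culture passes through a 2C-like state, in which transcripts of the 2-cell embryo are switched on and the pluripotency protein OCT4 is lost. The transcription factor DUX starts the program at genes that include the Zscan4 cluster, the Usp17l deubiquitinases and many transcripts that begin in MERVL repeats. ZSCAN4 proteins carry a SCAN domain and zinc fingers and are known for their part in telomere maintenance and genome stability of ESCs, and TCSTV3 has also been linked to telomere length there. The Trim43 genes encode tripartite motif proteins made in the embryo before implantation, and human TRIM43 is a target of DUX4 and restricts herpesviruses.

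The members lie in 3 clusters of near-identical copies. In mm10, Trim43a is at chr9:88580891-88588819 on the plus strand, Trim43c at chr9:88839164-88848190 on the plus strand and Trim43b at chr9:89084624-89092835 on the minus strand. Zscan4c is at chr7:11005745-11010547 on the plus strand, Zscan4d at chr7:11161374-11166159 on the minus strand and Zscan4f at chr7:11397915-11402318 on the plus strand. Tcstv3 is at chr13:120316878-120318178 on the plus strand. All are annotated as protein coding.

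The coding sequences show how little separates the copies. Trim43a and Trim43b were 98% identical over 1338 aligned columns, Trim43a and Trim43c 96.6%, and Trim43b and Trim43c 97.6%. The 60 coding bases that differ most among the Trim43 copies, bases 128 to 187 counted from the start codon (GENCODE vM21), within the first 506 coding bases, which align without a gap, are shown because a read can name its gene only where it covers such positions. Capitals mark the 6 positions at which the copies differ.
Trim43a: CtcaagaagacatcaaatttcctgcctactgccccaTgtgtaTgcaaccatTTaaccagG
Trim43b: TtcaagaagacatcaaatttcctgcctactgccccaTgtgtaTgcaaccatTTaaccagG
Trim43c: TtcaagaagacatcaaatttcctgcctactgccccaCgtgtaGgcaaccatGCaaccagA
In this stretch Trim43a differs from Trim43b at 1 position and from Trim43c at 6, and Trim43b differs from Trim43c at 5.

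Among the Zscan4 members, Zscan4c and Zscan4f were 99.6% identical over 1518 aligned columns, and Zscan4d was 97.7% identical to each. Their most different stretch was bases 1032 to 1091 of the coding sequence, printed with the same marking to show which copy can be told apart.
Zscan4c: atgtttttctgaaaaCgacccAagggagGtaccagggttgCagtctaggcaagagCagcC
Zscan4d: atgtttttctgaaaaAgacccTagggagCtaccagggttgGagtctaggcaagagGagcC
Zscan4f: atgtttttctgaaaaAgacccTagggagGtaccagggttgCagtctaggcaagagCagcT
The sequencing reads were 50 bases long. Of all 50-base stretches of each gene's transcripts, the share found in no other gene's transcripts was 68.6% for Tcstv3, 54.1% for Trim43a, 52.3% for Trim43b, 50.4% for Zscan4d, 41.4% for Trim43c, 14.5% for Zscan4c and 13.2% for Zscan4f. Zscan4c and Zscan4f shared 71.4% and 77.1% of their stretches with Zscan4-ps2, so their counts are uncertain as counts of single genes. For reads that match several places, the treatment in counting is not given in the labels or the study's methods.

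**Figure D1:**
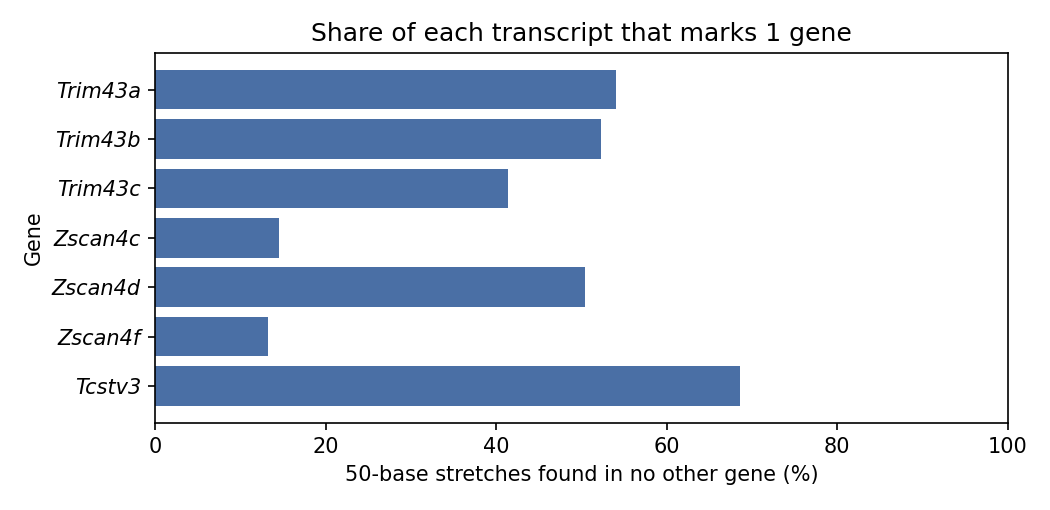
Horizontal bars give, for each of the 7 genes, the percentage of 50-base stretches of its transcripts that occur in no other gene's transcripts (GENCODE vM21). The bars run from 13.2% for Zscan4f to 68.6% for Tcstv3, and the 3 Trim43 genes lie between 41.4% and 54.1%.

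Upstream sequences were searched for letters of known motifs. The 250 bases before the RefSeq start (GRCm38.p6) are printed for Trim43a and, for comparison, for Zscan4c and Zscan4d. Capitals mark TGATTNAA, the first 8 letters of the DUX motif, which ends in TCA, and the TATA box letters TATAAA.
Trim43a, chr9:88580641-88580890, plus strand: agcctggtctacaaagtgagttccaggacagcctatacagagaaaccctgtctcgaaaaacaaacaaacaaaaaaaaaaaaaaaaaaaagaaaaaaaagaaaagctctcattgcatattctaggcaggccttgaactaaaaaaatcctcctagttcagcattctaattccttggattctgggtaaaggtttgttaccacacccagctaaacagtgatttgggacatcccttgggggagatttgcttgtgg
Zscan4c, chr7:11005495-11005744, plus strand: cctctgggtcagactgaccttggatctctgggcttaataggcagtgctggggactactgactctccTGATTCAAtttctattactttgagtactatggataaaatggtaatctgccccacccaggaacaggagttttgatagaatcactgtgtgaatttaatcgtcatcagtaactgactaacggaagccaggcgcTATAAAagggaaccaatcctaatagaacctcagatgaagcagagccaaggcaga
Zscan4d, chr7:11166149-11166398, minus strand: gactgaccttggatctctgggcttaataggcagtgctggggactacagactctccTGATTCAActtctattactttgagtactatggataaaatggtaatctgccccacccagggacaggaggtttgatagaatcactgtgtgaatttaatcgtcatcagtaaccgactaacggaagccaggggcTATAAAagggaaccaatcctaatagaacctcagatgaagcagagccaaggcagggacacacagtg
The Zscan4c and Zscan4f windows were 99.6% identical over 227 shared columns, and Zscan4c and Zscan4d 97.1% over 239. TGATTNAA occurred once in each of the 3 Zscan4 windows and not in that of Trim43a, and it was found on either strand in 2.6% of 32851 RefSeq windows of this length. TATAAA likewise occurred once in each Zscan4 window, not in that of Trim43a, and in 12.4% of all windows. The full DUX motif, TGATTNAA followed by TCA, was in none of the 4 windows and in 10 windows in all (0.0304%). These matches are letters in a window and not evidence of binding. Trim43b, Trim43c and Tcstv3 had no entry among the RefSeq windows.

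Trim43a was the member whose groups stood furthest apart. Its reads numbered 62, 119, 44 and 65 in LDHi+lactate replicates 1 to 4, 77, 108, 43 and 39 in LDHi, and 7, 9, 10 and 10 in control. Scaled to depth, this came to 1.45, 3.21, 1.51 and 2.20 CPM in LDHi+lactate, 1.85, 2.33, 1.98 and 1.497 CPM in LDHi, and 0.143, 0.196, 0.384 and 0.387 CPM in control. All 8 libraries with GNE-140 lay above all 4 control libraries, with or without lactate, and the LDHi+lactate and LDHi libraries overlapped.

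In the contrast that chose it, Trim43a averaged 1.91 ± 0.342 CPM in LDHi and 0.278 ± 0.126 CPM in control (SD, n = 4 each), a fitted log2 fold change of 2.84 (SE 0.39). By this value, which chose it, Trim43a was rank 8 among the 17721 genes. In bulk RNA, more cells that express a gene and more RNA per cell cannot be told apart.

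Trim43b, the closest copy of Trim43a, held 19, 27, 4 and 22 reads in LDHi+lactate, 16, 26, 7 and 8 in LDHi, and 4, 9, 1 and 1 in control. Its mean level was 0.513 ± 0.286 CPM in LDHi+lactate, 0.393 ± 0.116 CPM in LDHi and 0.0887 ± 0.0743 CPM in control (SD, n = 4 each). Every LDHi library exceeded every control library, with a fitted log2 fold change of 2.01 (SE 0.60) for LDHi against control, while LDHi+lactate replicate 3, at 0.137 CPM, lay below control replicate 2, at 0.196 CPM. Of the 7 members only Trim43a and Trim43b had every LDHi library above every control library, the contrast of the choice, in which 4.26% of genes tested did.

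Trim43c was too rare to be placed. It had 3, 5, 0 and 11 reads in LDHi+lactate, 4, 4, 3 and 0 in LDHi, and 0, 5, 5 and 0 in control, and the groups overlapped. The 0 in LDHi+lactate replicate 3 allowed up to 0.103 CPM, that in LDHi replicate 4 up to 0.115 CPM, and those in control replicates 1 and 4 up to 0.0614 and 0.116 CPM. The gene also lies opposite 9330159M07Rik on the other strand, which held 258 reads over the 12 libraries against its own 40. Trim43a alone made up 76.3% of the 777 reads of the 3 Trim43 genes.

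**Figure D2:**
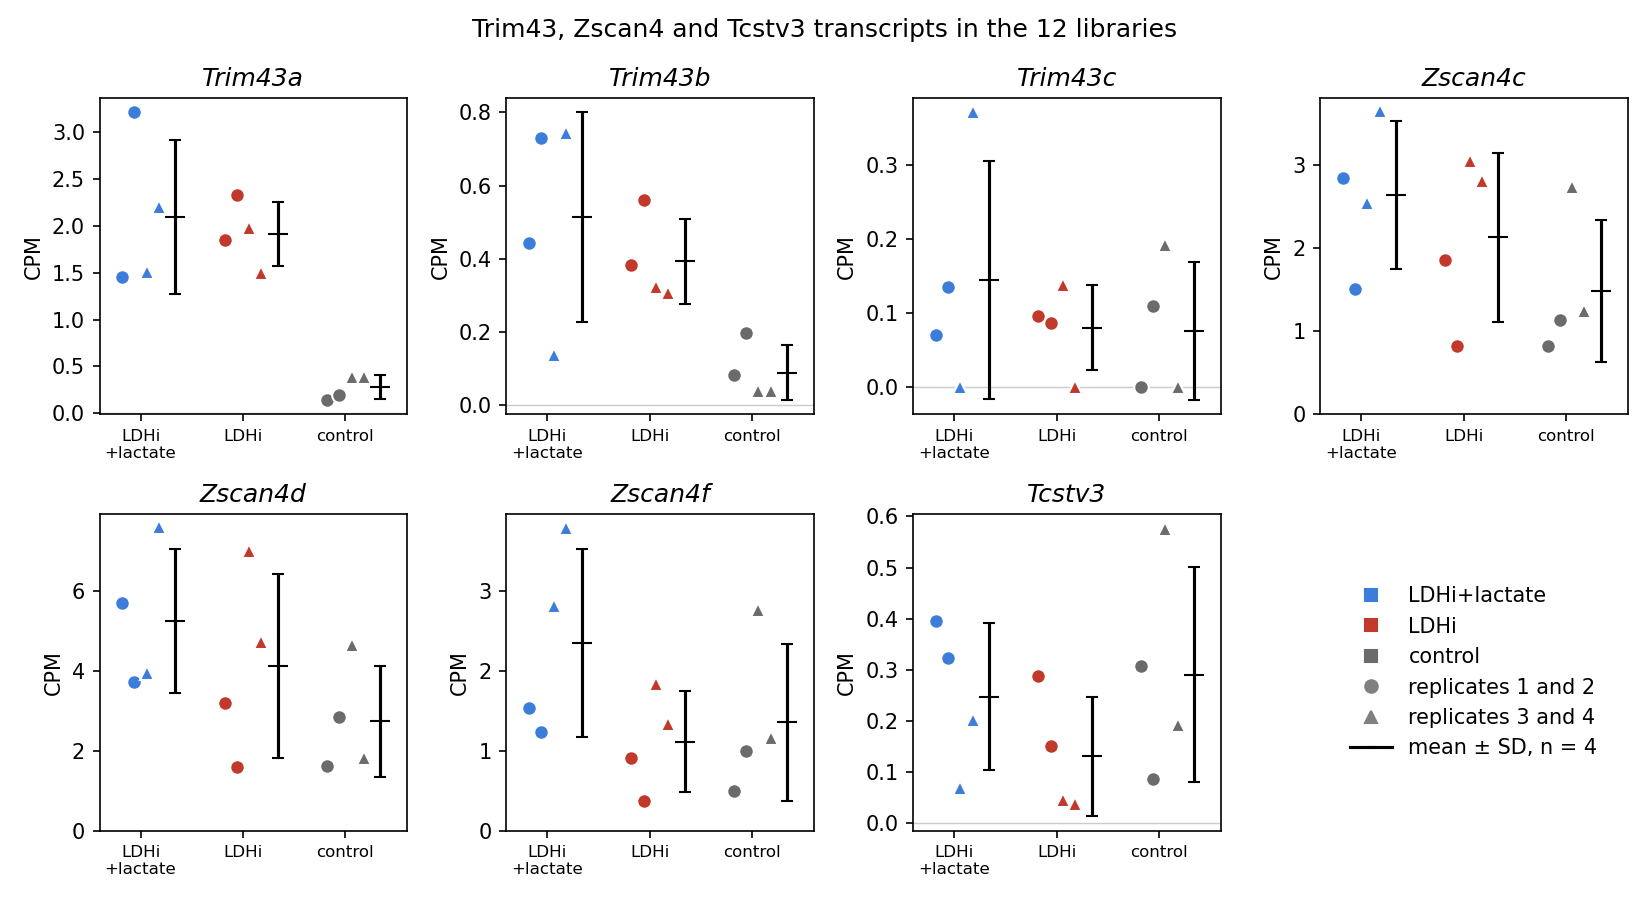
CPM of each of the 7 genes in the 12 libraries, with LDHi+lactate in blue, LDHi in red and control in grey, circles for replicates 1 and 2, triangles for replicates 3 and 4, and the mean ± SD (n = 4) in black. Trim43a had 1.45 CPM or more in every library with GNE-140 and at most 0.387 CPM in control, whereas the 3 groups overlapped for Trim43c, for each Zscan4 gene and for Tcstv3.

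The Zscan4 members did not share this layout. Zscan4d, the most abundant member, had 5.69, 3.73, 3.95 and 7.61 CPM in LDHi+lactate, 3.19, 1.59, 7.00 and 4.72 CPM in LDHi, and 1.62, 2.85, 4.65 and 1.82 CPM in control. Zscan4c had 2.84, 1.51, 2.54 and 3.65 CPM in LDHi+lactate, 1.85, 0.818, 3.04 and 2.80 CPM in LDHi, and 0.819, 1.132, 2.73 and 1.24 CPM in control. For both genes LDHi replicate 2 was the lowest LDHi library and close to the lowest control library, control replicate 1.

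Zscan4f had 1.54, 1.24, 2.81 and 3.79 CPM in LDHi+lactate, 0.912, 0.366, 1.84 and 1.34 CPM in LDHi, and 0.492, 1.002, 2.76 and 1.16 CPM in control. The fitted log2 fold changes of LDHi against control were 0.52 (SE 0.46) for Zscan4c, 0.59 (SE 0.45) for Zscan4d and -0.29 (SE 0.58) for Zscan4f, each from groups that overlapped. The Zscan4f value was 0.31 without control replicate 3 and 0.02 without LDHi replicate 2. Zscan4f was higher in LDHi+lactate than in LDHi in 4 of 4 replicate numbers, as was Tcstv3, although for both genes the groups overlapped.

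Tcstv3 held 17, 12, 2 and 6 reads in LDHi+lactate, 12, 7, 1 and 1 in LDHi, and 15, 4, 15 and 5 in control. It averaged 0.248 ± 0.144 CPM in LDHi+lactate, 0.131 ± 0.117 CPM in LDHi and 0.291 ± 0.210 CPM in control (SD, n = 4 each), with overlap among all 3 groups. Its fitted log2 fold change was -0.97 (SE 0.72) for LDHi against control.

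Levels of different genes were compared per kilobase of exon. Zscan4d was first in every group, at 2.31 CPM per kilobase in LDHi+lactate, 1.82 in LDHi and 1.20 in control. Trim43a, at 1.05 CPM per kilobase in LDHi+lactate and 0.964 in LDHi, was close to Zscan4c, at 1.16 in LDHi+lactate and 0.935 in LDHi, whereas in control it had 0.140 CPM per kilobase against 0.650 for Zscan4c. Trim43b and Trim43c had at most 0.227 CPM per kilobase in any group. The order turned when levels were given per kilobase of unshared 50-base stretches, the scale that would apply if only reads with 1 match were counted. On that scale Zscan4f had 9.09 CPM in LDHi+lactate, 4.33 in LDHi and 5.25 in control, Zscan4c 8.19 in LDHi+lactate, 6.61 in LDHi and 4.59 in control, and Zscan4d 4.68 in LDHi+lactate, 3.68 in LDHi and 2.44 in control. Trim43a, at 1.90 in LDHi+lactate, 1.74 in LDHi and 0.253 in control, was then below all 3 Zscan4 members.

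How lactate bears on these genes was asked with LDHi+lactate against LDHi, which shares the LDHi libraries with the contrast that chose the members. The LDHi values of Trim43a took part in that choice, so for Trim43a and its copy Trim43b the outcome is a description. In edgeR's quasi-likelihood test with no replicate block, 0 of the 6 members tested passed a Benjamini-Hochberg adjusted p of 0.05 (called, from here on), where 0.0% of all genes were called. Of the 6, 0 had an unadjusted p under 0.05, where 603 of 17721 genes had one. DESeq2 called 0 of the 6 as well, where it called 0.166% of genes. With the replicate number as a block, which called 0.638% of genes, again 0 members were called, and Zscan4f had the smallest p.

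The log2 fold changes of LDHi+lactate against LDHi were 0.13 (SE 0.34) for Trim43a and 0.36 (SE 0.53) for Trim43b. They were 0.32 (SE 0.45) for Zscan4c, 0.36 (SE 0.45) for Zscan4d, 1.09 (SE 0.58) for Zscan4f and 0.82 (SE 0.72) for Tcstv3. All 6 values were above 0, with a median of 0.36 against -0.01 over all genes tested, and none passed the test. Two-sided exact permutation tests of log2 CPM gave p = 0.771 for Trim43c, 0.514 for Zscan4c, 0.429 for Zscan4d, 0.143 for Zscan4f and 0.257 for Tcstv3. The smallest p that 4 against 4 libraries allow is 0.0286. For Trim43a and Trim43b no exact p is given, since the LDHi values of Trim43a took part in the choice. The exact tests here are among 21, and their p-values are not adjusted.

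Zscan4f was the exception under 1 setting. With the block its log2 fold change was 1.12 (SE 0.36) at an edgeR adjusted p of 0.24, and with the block and no filter on low counts, where 1.12% of genes were called higher, the adjusted p was 0.0455. Over all 27 settings in which Zscan4f was tested, the adjusted p ranged from 0.0455 to 1.0, and the log2 fold change from 0.76 to 1.44. Within the first set alone its mean log2 CPM differed by 1.17 between LDHi+lactate and LDHi, and within the second by 1.03. For Zscan4c and Zscan4d the same differences were 0.72 and 1.01 in the first set, and 0.06 and -0.07 in the second.

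LDHi+lactate was also set against control, a comparison that shares the control libraries with the one that chose the members. The low control values of Trim43a took part in that choice, so the values of Trim43a and of its copy Trim43b are a description here too, and no p-value is given for them. The Trim43a log2 fold change was 2.96 (SE 0.39) and that of Trim43b was 2.37 (SE 0.60), and with the replicate block they were 2.96 (SE 0.36) and 2.41 (SE 0.50).

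Without a block edgeR called 0 of 17721 genes (0.0%) and so 0 of the 6 members. Calls of Trim43a and Trim43b in other fits rest on the control libraries of the choice and are not given. No other member had an unadjusted p under 0.05 without the block. With the block, where 4.18% of genes were called higher (8.05% in either direction), no other member was called. DESeq2, with no block, called 0.338% of genes higher and no other member. With no filter and no block edgeR called 0.00583% of genes higher and no other member. With no filter and the block it called Zscan4d, where 3.13% of genes were called higher.

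By library, Trim43a lay above every control library in LDHi+lactate, in 4 of 4 replicate numbers. Of the 7 members only Trim43a had LDHi+lactate and control libraries that did not overlap. Among the genes tested, 2.12% had all LDHi+lactate libraries above all control libraries. The control libraries took part in the choice, so for Trim43a and Trim43b this is a description and not evidence that they stand out. Within the sets the mean log2 CPM of Trim43a was 3.30 higher in LDHi+lactate than in control in the first set and 2.09 higher in the second. Trim43b was higher in 4 of 4 replicate numbers, and its differences within the sets were 1.74 and 2.05. Zscan4f was also higher in 4 of 4 replicate numbers, by 0.92 and 0.84 within the sets, although its groups overlapped. The share of all genes that were higher in 4 of 4 was not counted.

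Zscan4c, Zscan4d and Zscan4f had log2 fold changes of 0.85 (SE 0.46), 0.94 (SE 0.45) and 0.81 (SE 0.57) for LDHi+lactate against control and were not called with or without the block. Their adjusted p-values in edgeR were 0.607, 0.556 and 0.716 without the block and 0.12, 0.142 and 0.156 with it. The exact permutation p was 0.0857 for Zscan4c, 0.0857 for Zscan4d and 0.143 for Zscan4f. Tcstv3 had -0.15 (SE 0.68) with an exact p of 0.857, and its differences within the sets had opposite signs, 0.86 in the first and -1.14 in the second. For Trim43c the exact p was 0.571.

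**Figure D3:**
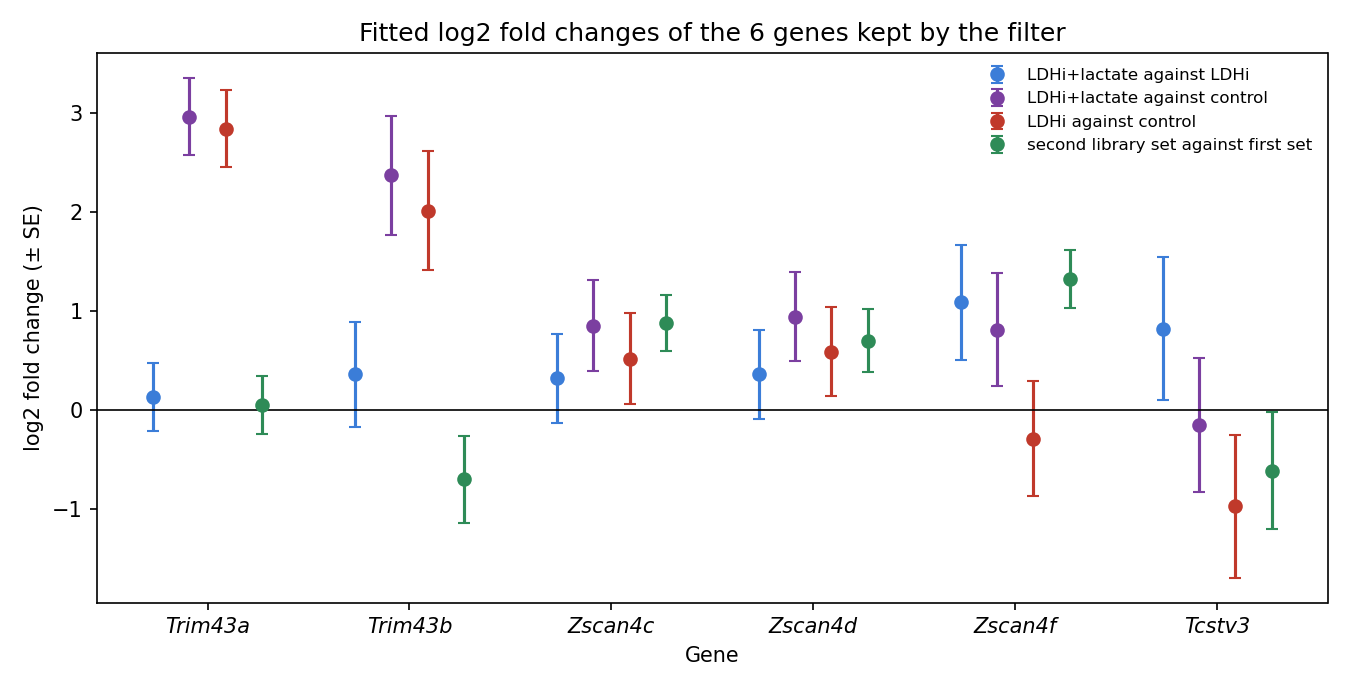
Fitted log2 fold changes (points) with standard errors (bars) of the 6 genes kept by the filter, from the edgeR fit with no replicate block; the LDHi against control values chose the genes. For LDHi+lactate against LDHi the values were 0.13 for Trim43a, 0.36 for Trim43b, 0.32 for Zscan4c and 0.36 for Zscan4d. Trim43a and Trim43b lay above 2 for both comparisons with control. Between the library sets the values were 1.32 for Zscan4f, 0.88 for Zscan4c and 0.70 for Zscan4d.

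The second library set was compared with the first, a comparison that the choice of members did not use. With treatment in the model, 27.9% of all genes differed between the second set and the first (edgeR adjusted p under 0.05), 13.7% being higher in the second. Of the 6 members 2 were called, Zscan4f and Zscan4c, both higher in the second set. Set, depth and cell type label cannot be told apart.

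Zscan4f ranged from 1.16 to 3.79 CPM in the 6 libraries of the second set (median 2.30) and from 0.366 to 1.54 CPM in the 6 of the first (median 0.957). Its log2 fold change was 1.32 (SE 0.29) at an adjusted p of 0.00744, it was called with each of the 12 libraries left out (0.00513 to 0.022), and within the groups the difference was 1.21 in LDHi+lactate, 1.35 in LDHi and 1.28 in control. The exact permutation p over 6 against 6 libraries, taken as independent, was 0.0108. Zscan4f was called in this comparison under all 17 settings tried, DESeq2 included, which called 8.4% of genes higher and, of the members, Zscan4c and Zscan4f.

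Zscan4c ranged from 1.24 to 3.65 CPM in the second set (median 2.76) and from 0.818 to 2.84 CPM in the first (median 1.32), with a log2 fold change of 0.88 (SE 0.28), an edgeR adjusted p of 0.039 and an exact p of 0.0368. This call was lost when any 1 of 8 libraries was left out (LDHi+lactate replicate 2 or 4, LDHi replicate 2, 3 or 4, control replicate 1, 2 or 3), with adjusted p-values up to 0.0971. Zscan4d, at 0.70 (SE 0.32), was not called (adjusted p = 0.126, exact p = 0.139), except with no filter (adjusted p = 0.037, where 6.29% of genes were called higher). Nor were Trim43a at 0.05 (SE 0.29, exact p = 0.797), Trim43b at -0.70 (SE 0.44, exact p = 0.275) and Tcstv3 at -0.61 (SE 0.59, exact p = 0.247), and for Trim43c the exact p was 0.935. No member was called for a treatment difference that itself differed between sets, in edgeR with an interaction term, which called 0 genes in each of the 3 comparisons. For LDHi against control, where the choice of members was made, the p-values of this test are not given for members.

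Across libraries the Zscan4 genes varied together. The Pearson correlation of log2 CPM over the 12 libraries was 0.95 between Zscan4c and Zscan4d, 0.88 between Zscan4c and Zscan4f and 0.82 between Zscan4d and Zscan4f. After subtraction of the group means it was 0.93, 0.94 and 0.86. These genes share reads and libraries, so the values are a description.

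Trim43a and Trim43b correlated at 0.80 over the 12 libraries but at 0.16 after the group means were removed, so their likeness lay between groups. Between Trim43a and the Zscan4 members the correlation was 0.44 (Zscan4c), 0.47 (Zscan4d) and 0.22 (Zscan4f), and 0.16 or less after the group means were removed. Tcstv3 correlated with the Zscan4 members at -0.12 to -0.03 over the 12 libraries and at -0.21 to -0.08 after the group means were removed.

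Sums over the families showed the same 2 layouts. The 3 Trim43 genes summed to 1.65 to 4.08 CPM in LDHi+lactate, 1.80 to 2.97 CPM in LDHi and 0.225 to 0.614 CPM in control. The 9 Zscan4 genes and pseudogenes, of which Zscan4a (21.3%) and Zscan4d (20.1%) held the largest shares of the 7888 reads, summed to 16.8 to 40.1 CPM in LDHi+lactate, 6.78 to 33.7 CPM in LDHi and 9.05 to 25 CPM in control. The lowest Zscan4 library was LDHi replicate 2, which had the highest Trim43 sum of its group, 2.97 CPM.

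**Figure D4:**
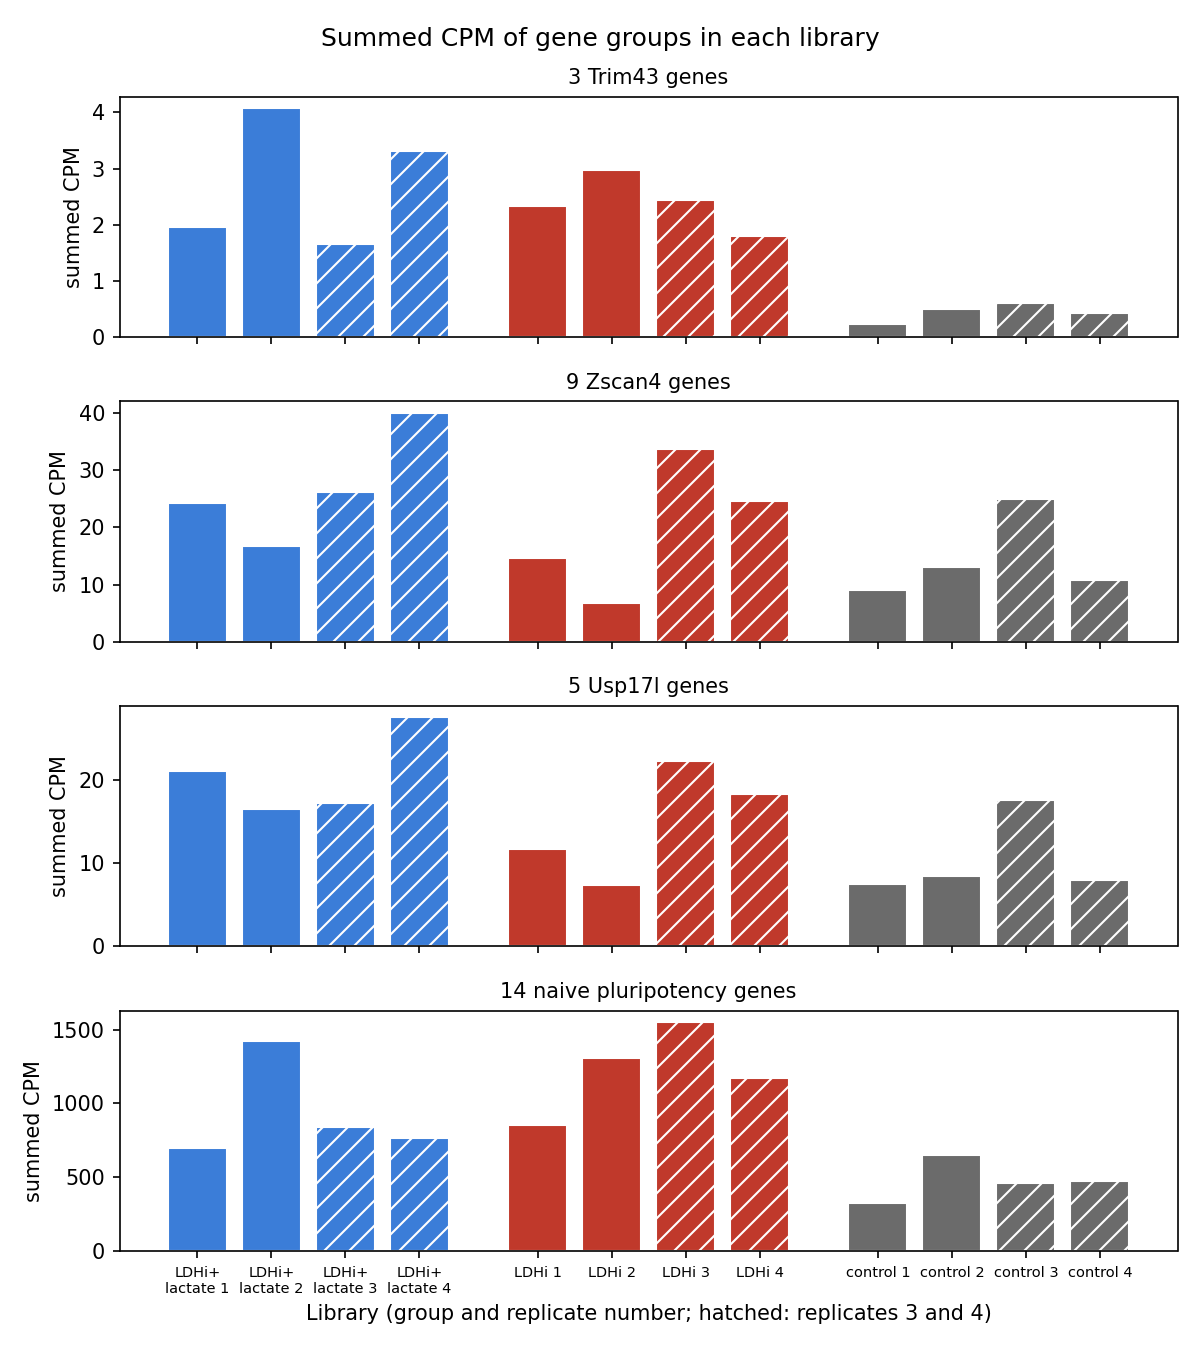
Summed CPM in each of the 12 libraries (LDHi+lactate, LDHi, control; replicates 3 and 4 hatched) for the 3 Trim43 genes, the 9 Zscan4 genes, the 5 Usp17l genes and the 14 naive pluripotency genes. The Trim43 and pluripotency sums were low in all 4 control libraries (at most 0.614 and 650 CPM), whereas the Zscan4 and Usp17l sums dipped to 6.78 and 7.36 CPM in LDHi replicate 2 and peaked at 40.1 and 27.6 CPM in LDHi+lactate replicate 4.

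The other 2C-like transcripts were set beside both families. Of 50 listed genes, 48 were matched by symbol, 5 of these had 0 reads in all libraries and 33 passed the filter. The sum of the 5 Usp17l genes, which encode deubiquitinases, correlated with the Zscan4 sum at 0.96 over the 12 libraries and at 0.97 after the group means were removed. The 7 genes of the chromosome 12 cluster of Eif1a-like copies did so at 0.75 and 0.81. Against the Trim43 sum the same values were 0.58 and 0.16 for Usp17l, and 0.82 and 0.19 for the chromosome 12 genes.

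For LDHi against control edgeR without the block called 0 of these 33 genes, where 3.09% of all genes were called. Of the 33, 5 had an unadjusted p under 0.05, as did 2916 of all 17721 genes, a similar share. The median log2 fold change of the 33 was 0.38 against 0.01 over all genes. With the block, which called 9.85% of all genes higher, 4 were higher: Gm2016 (1.02), Gm5662 (1.48) and Gm8300 (0.92) of the chromosome 12 cluster, and Arg2 (0.83), an arginase. Without replicate 1 the block called 0 of them, and without replicate 2 or replicate 4 it called 1, Gm2016. DESeq2, which called 1.39% of all genes higher, called 3, the chromosome 12 genes.

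With LDHi+lactate against LDHi, edgeR called 0 of the 33 with or without the block. An unadjusted p under 0.05 was found for 1 without the block and 6 with it, against 603 and 2021 of 17721 genes. Of the log2 fold changes of the listed genes 29 of 33 were above 0, with a median of 0.41. With LDHi+lactate against control edgeR called 0 without the block, 10 having an unadjusted p under 0.05, where 1653 of 17721 genes had one. The block called 6 higher, where it called 4.18% of all genes higher, and DESeq2 4, where it called 0.338% higher. These 6 were Gm2016 (1.41), Gm5662 (1.77), Gm8300 (1.32), Usp17la (1.17), Usp17lb (1.21) and Usp17le (1.02), and the block without 1 replicate number called 0 to 5 of the list, 0 without replicate 1 and 2 without replicate 4.

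Between the sets 9 of the 33 were called higher in the second, where 13.7% of all genes were, and 0 lower, and 32 of 33 log2 fold changes were above 0, with a median of 0.80 against -0.01 over all genes. The 9 included Zscan4a (0.92), Zscan4b (1.26), Zscan4e (1.55) and Zscan4-ps1 (0.94), Usp17le (0.90), Tmem92 (1.08), Gm12794 (1.11), Arg2 (1.03) and Gm2016 (0.51). This count depended on single libraries: it was 4, a share near that of all genes, without LDHi+lactate replicate 4 or control replicate 3, 5 without control replicate 1, 6 without LDHi+lactate replicate 2, LDHi replicate 2 or LDHi replicate 3, and 18 without control replicate 4. Duxf3, the listed copy of the upstream factor, had 141 reads in all, at a mean of 0.60 CPM in LDHi+lactate, 0.247 CPM in LDHi and 0.249 CPM in control.

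**Figure D5:**
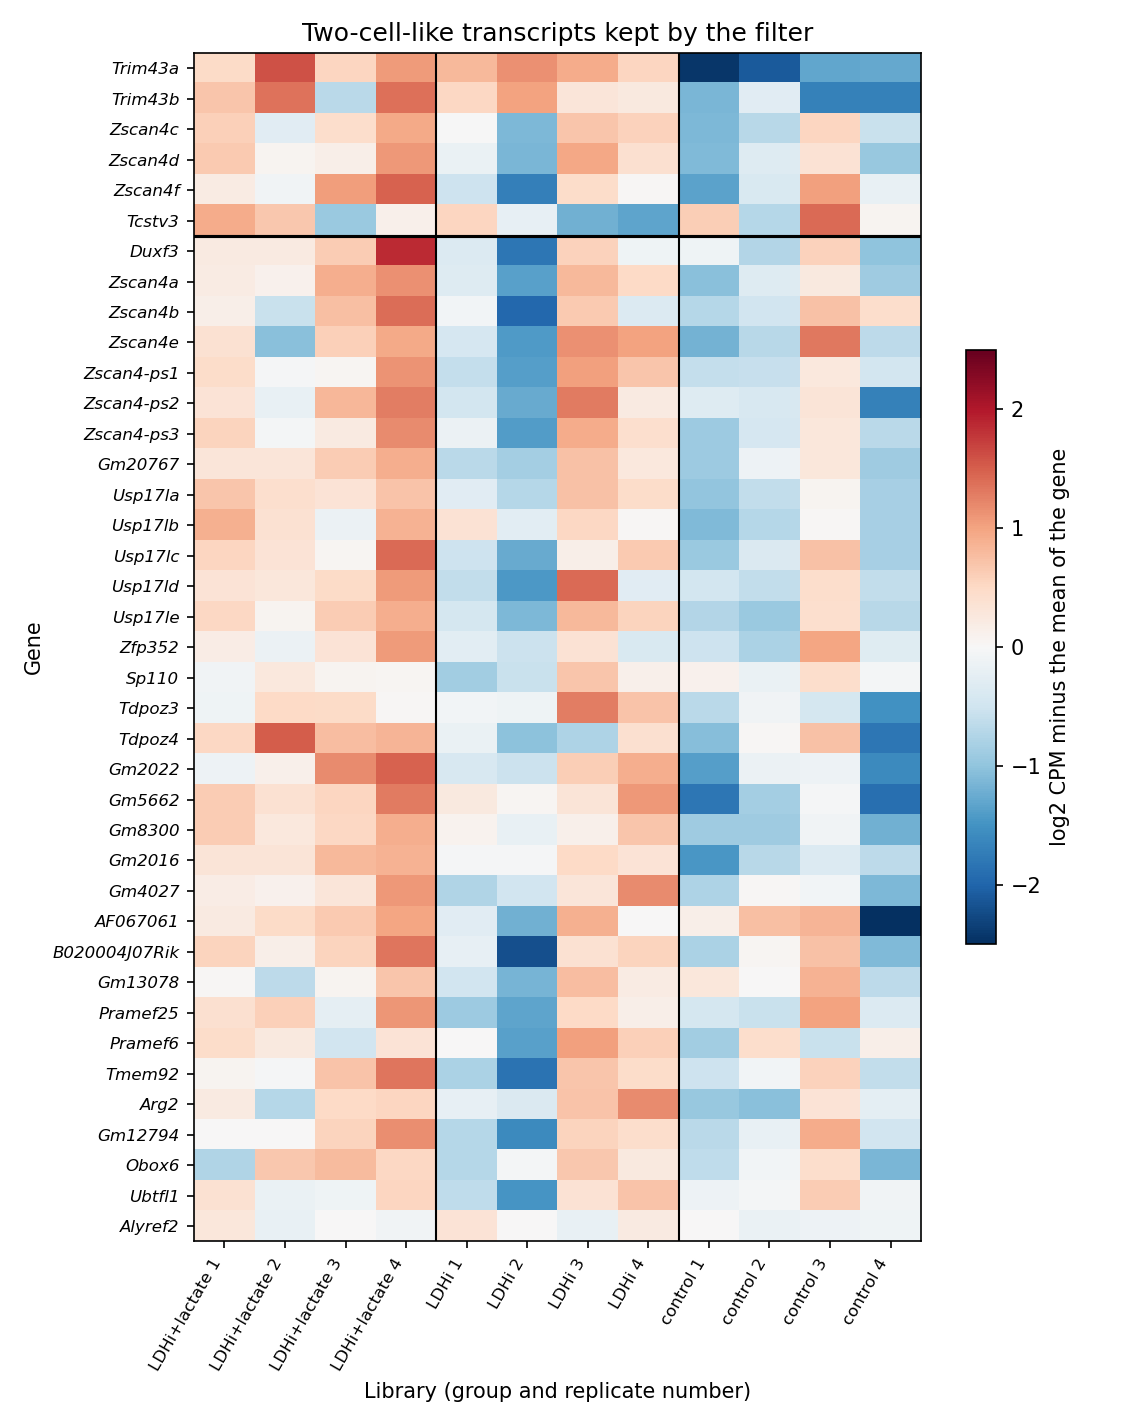
Heat map of log2 CPM minus each gene's mean over the 12 libraries, for the 6 members kept by the filter (above the black line) and the 33 other 2C-like transcripts kept by it, with columns for LDHi+lactate, LDHi and control libraries 1 to 4. Red is above and blue below the gene's mean. Trim43a and Trim43b were low in the control columns, and most Zscan4, Usp17l and other 2C-like rows were low in LDHi replicate 2 and high in LDHi+lactate replicate 4.

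Naive pluripotency genes mark ESCs that have not differentiated. For LDHi against control 10 of 14 naive pluripotency genes were called higher by edgeR without the block, where 0.909% of all genes were called higher. All 14 were called with the block, where 9.85% of all genes were called higher, and by DESeq2, where 1.39% were. Tdh, a threonine dehydrogenase of ESCs, rose by a log2 fold change of 2.02 (SE 0.40), Zfp42 by 1.52 (SE 0.29) and Nanog by 1.24 (SE 0.26). The count without the block was 3 when LDHi replicate 2 or 3, or control replicate 1 or 3, was left out. The 14 genes summed to 700 to 1420 CPM in LDHi+lactate, 854 to 1550 CPM in LDHi and 328 to 650 CPM in control.

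The same genes were compared with lactate present. For LDHi+lactate against control edgeR called 0 of the 14 without the block, with 13 at an unadjusted p under 0.05, where 1653 of 17721 genes were. With the block it called 12, where 4.18% of all genes were called higher, or 3 without replicate 1. For LDHi+lactate against LDHi it called 0 without and with the block, with 2 and 10 at an unadjusted p under 0.05. Over all 17721 genes 603 and 2021 were. All 14 log2 fold changes of the naive pluripotency genes were below 0, with a median of -0.36. Over the 12 libraries the pluripotency sum correlated at 0.86 with the Trim43 sum and at 0.24 with the Zscan4 sum, and at 0.61 and 0 after the group means were removed. The part of undifferentiated cells in the Trim43a difference was not tested.

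Dppa2 and Dppa4, DNA-binding proteins that activate the Dux locus in ESCs, were read as upstream members of the program. Dppa2 had a median of 17.4 CPM in LDHi+lactate, 17.9 CPM in LDHi and 6.24 CPM in control, and Dppa4 averaged 15.6 CPM in LDHi+lactate, 19.2 CPM in LDHi and 7.77 CPM in control. Of the 5 activators listed edgeR called 0 for LDHi against control without the block, with 2 at an unadjusted p under 0.05, where 2916 of 17721 genes were. With the block, where 9.85% of all genes were higher, it called 3 higher, Dppa2 (log2 fold change 1.43), Dppa4 (1.36) and Trp53 (0.39). These were also called with each replicate number left out. Of the 5 log2 fold changes without the block 4 were above 0. Gata2, another activator, averaged 14.2 ± 9.24 CPM in LDHi and 19.7 ± 10.6 CPM in control (SD, n = 4 each). Of 26 repressors of the program 1 was called higher without the block, Zfp42, which is also a pluripotency gene. Its call was lost without LDHi replicate 2 or 3 or control replicate 1 or 3. With the block 11 were higher, against the same 9.85% of all genes, and 1 was lower, against 10.1%. The block called 7 higher without replicate 1 and 5 higher without replicate 4. Rif1 (0.55), which silences Zscan4 genes in ESCs, was among those called with each replicate number left out.

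Lists of other cells and of germline genes were read in the same way. Of 14 germline genes tested, which DNA methylation keeps silent in somatic cells, edgeR called 1 higher for LDHi against control, where 0.909% of all genes were. It was Tex19.1, by 1.10 (SE 0.26), a call that 9 of the 12 fits with 1 library left out did not make. With the block, where 9.85% of all genes were higher, Dazl, Hormad1 and Stk31 were also called. That count was 2 genes in all without replicate 4 and 7 without replicate 2. Neither the mesoderm and endoderm list nor the trophoblast list had a call without the block (0 of 6 tested in each). In each list 1 gene had an unadjusted p under 0.05, as did 2916 of all 17721 genes. With the block, against the same 9.85% of all genes, Sox17 and Foxa2 in the first and Tfap2c in the second were higher. Foxa2 was lost without replicate 1, 3 or 4. The trophoblast genes summed to 97.7 to 153 CPM in LDHi+lactate, 135 to 158 CPM in LDHi and 90.4 to 132 CPM in control, and their part in the Trim43a difference was not tested.

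The eye genes ran the other way. Of 8, edgeR called 3 lower in LDHi than in control without the block, Six6, Rax and Six3, where 2.18% of all genes were lower, and all 8 with it, where 10.1% were. The first count was 5 with control replicate 4 left out, 0 with LDHi replicate 2 left out, and 1 with LDHi replicate 1 or 4 or control replicate 1 or 3 left out. Six6 averaged 76.6 CPM in LDHi+lactate, 9.48 CPM in LDHi and 98.3 CPM in control, and Rax averaged 24.1 CPM in LDHi+lactate, 6.60 CPM in LDHi and 26.6 CPM in control. The block called Six6, Rax and Six3 higher in LDHi+lactate than in LDHi, where 0.57% of genes were called higher. In that fit Trim43a and Trim43b had log2 fold changes of 0.08 and 0.3. The LDHi values of Trim43a took part in the choice, so both are a description. Without replicate 1 or 3 the block called 1 eye gene, and without replicate 2 it called 0.

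The genes most like Trim43a were chosen by the Pearson correlation of log2 CPM over the 12 libraries. They were Gsta3, a glutathione transferase (0.941), Sfn, the 14-3-3 sigma protein (0.927), Gm26917 (0.927), Card6 (0.921), Lmnb2, lamin B2 (0.915), and Cdkl2, a kinase (0.914). Without the 2 libraries farthest from the Trim43a median the values were 0.831 to 0.931. These libraries were control replicates 1 and 2, so the difference between the groups was still part of the values. How far these genes were like Trim43a within the groups was not tested. Their levels differed widely: Gm26917 averaged 491 CPM in LDHi+lactate, 480 CPM in LDHi and 181 CPM in control, and Gsta3 averaged 4.31 CPM in LDHi+lactate, 4.98 CPM in LDHi and 1.57 CPM in control. Lmnb2 differed least, with a log2 fold change of 0.16 (SE 0.06) for LDHi against control.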

How the data were processed

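Reads were trimmed with cutadapt, aligned to mm10 with STAR, and assigned to Ensembl genes with HTSeq 0.6.1p1 by the authors, who deposited raw counts with no normalization, 1 file a library. The submitters' processing notes also name DESeq2 1.14.1. The strand setting and the annotation release were not stated. Of 54232 gene IDs, 54079 were matched to symbols of GENCODE vM21. No pair of libraries of a group agreed within sampling noise (chi-square per degree of freedom of 27.7 or more).

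The labels gave groups and replicate numbers. Counts were fitted with edgeR 4.0.16 in R 4.3.3 (quasi-likelihood, TMM scaling, filterByExpr, all 12 libraries together, no block), with Benjamini-Hochberg adjustment over 17721 genes and calls under 0.05. Library set was tested beside treatment, with the libraries treated as independent. Log2 CPM had a prior count of 2. The 2-sided exact permutation tests treat libraries as unpaired, with a smallest p of 0.0286 for 4 against 4 and 0.00216 for 6 against 6.

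Replicate numbers 1 to 4 are shared by the groups. Deviations from the group means correlated at 0.329 to 0.634 for all 12 pairs of the same number, at -0.22 to 0.197 for another number of the same set and at -0.544 to 0.171 across sets. The numbers were therefore taken to pair the libraries, although the study does not state it. The fit with the number as a block is given where it changed a call outside the contrast that chose the members. Calls of Trim43a and Trim43b against control are left out.

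Alternatives were DESeq2 1.42.0, other scaling (RLE, library totals) and filters (none, or 10 counts in every library), the compared groups alone, set as a term, each set alone and each library left out. Block fits without each replicate number or with no filter were added after the data were seen. The edgeR steps were tested on simulated counts.

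The members and gene lists were chosen with earlier results of these data known. Named genes are the 7 members, up to 3 called genes with the smallest adjusted p and up to 2 with the highest mean CPM of each list, and the 6 genes most correlated with Trim43a. Not all of these are printed. Gm26917, Lmnb2, Duxf3, Gata2, and genes called with the block or between sets were named after their values were seen where they fall outside this rule. A result of 1 list is not reported here.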

Additional observations from a re-analysis of the deposited data

How the results depend on the processing

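For LDHi+lactate against control edgeR without a block called 0 of 17721 genes and so 0 of 6 members. Calls of Trim43a and Trim43b there in other settings rest on the control libraries of the choice and are not given. Of the other members only Zscan4d was called, with the block and no filter on low counts, where 3.13% of genes were called higher. LDHi+lactate against LDHi gave 0 called members except with the block and no filter, which called 1, and for the second set against the first leaving out 1 library gave 1 to 2. The block without 1 replicate number called no member other than Trim43a and Trim43b for LDHi+lactate against control. For LDHi+lactate against LDHi it called 0 members. Calls of members for LDHi against control, which chose them, are not given. Outside that comparison, and calls of Trim43a and Trim43b against control aside, the block changed no call of a member with the filter in place.

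Over all genes, 547 were called for LDHi against control, 3533 with the block, 1330 with DESeq2, 1387 with set as a term, 304 with the groups compared alone, 3 with replicates 1 and 2 only, 110 with replicates 3 and 4 only, and 110 to 872 with 1 library left out. LDHi+lactate against LDHi gave 0, 113 with the block and 57 with DESeq2, and LDHi+lactate against control 0, 1426 and 236. Of all listed genes other than members, 14 were called for LDHi against control, 28 with set as a term, 47 with the block (34, 37, 41 and 47 without 1 replicate number), 27 with DESeq2, 55 with the block and no filter, 0 with replicates 1 and 2 only, and 3 to 20 with 1 library left out. LDHi+lactate against LDHi gave 0, with 3 for the block (0 to 3 without 1 replicate number), 3 for DESeq2, 15 for the block with no filter, and 0 to 1 with 1 library left out. LDHi+lactate against control gave 0, with 27 for the block (4 to 21), 12 for DESeq2 and 48 for the block with no filter. Of the other 2C-like transcripts 0 were called for LDHi against control, 3 with set as a term, 4 with the block (0 to 4), 3 with DESeq2, 5 with the block and no filter, and 0 to 1 with 1 library left out. For the same genes LDHi+lactate against control gave 0, with 6 for the block (0 to 5), 4 for DESeq2 and 10 for the block with no filter.

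Some directions turned. Zscan4f for LDHi against control was -0.29, and -0.63 to 0.31 with 1 library left out, 0.31 without control replicate 3 and 0.02 without LDHi replicate 2, and 0.09 with the block without replicate 2. Tcstv3 in that comparison was -0.97, and 0.13 in replicates 1 and 2 only. Trim43a ranged from -0.16 to 0.27 for LDHi+lactate against LDHi and from -0.08 to 0.31 between sets with 1 library left out, and from -0.08 to 0.24 (-0.05 without replicate 4) for LDHi+lactate against LDHi with the block and 1 replicate number left out, where Trim43b ranged from -0.03 to 0.60. Zscan4d was -0.01 for LDHi+lactate against LDHi in replicates 3 and 4 only. Tcstv3 was 0.85 for LDHi+lactate against control in replicates 1 and 2 only, -0.29 to 0.36 with 1 library left out and -0.17 to 0.74 with the block. Of the log2 fold changes of LDHi against control 4 were above 0, 4 to 5 with 1 library left out, and 2 when at least 10 counts in every library were required, which left fewer members. Except where stated, causes were not tested. Depth limits Trim43c, Trim43b and Tcstv3 most, since single libraries held 0 to 27 of their reads.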
